A study of Oryza sativa with 4 samples.

Results

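LOC_Os01g73700, LOC_Os06g33940 and LOC_Os04g53640 are root cap marker genes of rice, 3 of the 669 genes held here from the study's root cap list. They were selected on measured accessibility: the list was drawn up from genes more open in 1 cluster of nuclei of these same libraries, so high values in root cap nuclei describe the choice and support nothing. The loci were taken as the peaks of each library that overlap the span of each gene and its 5′ flank. That gave 4 merged regions of 66332 in the series, and between 3 and 5 peaks per library of 65218 to 66704.

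The root cap covers the growing tip of a root. It shields the meristem, senses gravity, secretes mucilage and sheds its outer cells as the root pushes through soil. Genes that are active in a cell type usually have open chromatin at their start, where regulatory proteins can reach the DNA. No role is given for the 3 gene products in the sources used here, apart from their use as root cap markers. The study reports that in situ hybridization detected transcripts of LOC_Os04g53640 in the root cap. It also names LOC_Os01g73700 as a root cap marker gene, after cross-referencing with marker genes published earlier.

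In single-cell ATAC sequencing the transposase Tn5 cuts open DNA inside nuclei, and the cut sites of a nucleus share a barcode. Nuclei came from root tips of 5 mm, pooled over seedlings of the japonica cultivar Nipponbare, 3 days old and grown at 28 °C. The groups were 2 Normal libraries without further treatment and 2 heat stress (HS) libraries, whose root tips the study's text places at 45 °C for 3 h before harvest. Nothing in the labels names separate seedlings for the replicates, so p-values measure the spread between these libraries only. After removal of likely doublets, between 9571 and 11094 nuclei per library remained, and the libraries held between 350206085 and 364736225 cut sites in peaks. Pairs of libraries shared between 163 and 254 barcodes, which is small beside the nuclei of each. No library stood apart in the values below unless it is named.

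The peaks lay at the gene starts, and their extent differed between the loci. Coordinates are those of the deposited peaks on the Nipponbare genome, and the sources used here name no build. LOC_Os01g73700 lies on the minus strand of chromosome 1, from 42928687 to 42930011. Its start peak ran from 42929897 to 42931569 in Normal replicate 1, and it was 1617 to 1673 bp long in the 4 libraries, of which 68 to 115 bp lay in the gene. LOC_Os06g33940 lies on the minus strand of chromosome 6, from 19735313 to 19737513. Its only peak ran from 19737425 to 19740596 in Normal replicate 1 and reached 3082 to 3097 bp upstream of the gene, with 77 to 89 bp inside it. Both genes were thus open at the start and upstream, and most of the gene body held no peak.

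LOC_Os04g53640, on the plus strand of chromosome 4 from 32056761 to 32058687, was covered from end to end. Its main peak ran from 32054557 to 32059455 in Normal replicate 1, over all 1927 bp of the gene and 768 bp beyond its 3′ end. A short second peak upstream was called in Normal replicate 1 (368 bp) and HS replicate 2 (241 bp). In Normal replicate 2 it was joined to the main peak, which was 5902 bp long there, and in HS replicate 1 it was not called. The extent called at this locus therefore varied within both groups.

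A further peak at the 3′ end of LOC_Os01g73700 fell on the edge of the rule that chose the loci. In HS replicates 1 and 2 it was 1287 and 1256 bp long and entered the gene by 79 and 42 bp. In Normal replicates 1 and 2 it was 794 and 786 bp long and ended 404 and 414 bp short of the gene, so the rule took it in HS only. It was kept apart from the start peak after its values were seen. Its level in the 5% of nuclei with the highest root cap score was 1.18 to 1.33 times that in the lower 50%, against 5.23 to 8.82 times for the start peak. A locus with both peaks would have been a different object in HS and in Normal.

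A small share of nuclei had a cut site at each locus. At LOC_Os01g73700 the share was 6.74% and 6.45% in Normal replicates 1 and 2, and 7.07% and 7.14% in HS replicates 1 and 2. At LOC_Os06g33940 it was 13.3%, 13.3%, 10.9% and 12.0% in the same order. At LOC_Os04g53640 it was 13.9%, 13.7%, 14.8% and 15.4%. HS nuclei were deeper than Normal nuclei, with medians of 25493 and 26003 against 21378 and 21678.5 cut sites, so the shares were also computed for nuclei thinned to 10000 cut sites. That left out 2887 shallower Normal nuclei of 22110 and 2166 HS nuclei of 19148.

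At equal depth the shares of the 3 loci ordered the same way in the 4 libraries. For LOC_Os01g73700 the thinned share was 3.13% ± 0.05 in Normal (SD, n = 2) and 3.01% ± 0.02 in HS. For LOC_Os06g33940 it was 7.42% ± 0.17 in Normal and 5.83% ± 0.38 in HS. For LOC_Os04g53640 it was 7.72% ± 0.06 in Normal and 7.57% ± 0.22 in HS. The groups did not overlap for LOC_Os01g73700 (3.16% and 3.09% in Normal, 2.99% and 3.02% in HS) and LOC_Os06g33940, and overlapped for LOC_Os04g53640. With 2 libraries per group such a separation says little, and the share of all regions without overlap was not computed. Most open nuclei held a single fragment at the locus, and 0.13% to 0.25% of nuclei held more than 2 fragments at LOC_Os01g73700, against 1.39% to 2.07% at each of the other loci.

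Per length of called peak the order of the levels was different, because the peaks differ in length. The level of a locus is its cut sites per 10000 cut sites in regions. Per kb of peak, LOC_Os06g33940 had the highest level in every library, at 0.0554 and 0.0523 in Normal replicates 1 and 2 and 0.0407 and 0.0424 in HS replicates 1 and 2. LOC_Os01g73700 lay between 0.0371 and 0.0395, and LOC_Os04g53640 between 0.0313 and 0.0355. LOC_Os06g33940 stood further above the others in Normal than in HS.

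Cut sites of barcodes outside the nuclei gave levels near or above the mean of the nuclei. The level outside nuclei was 0.0630 to 0.0713 at LOC_Os01g73700, 0.126 to 0.181 at LOC_Os06g33940 and 0.179 to 0.237 at LOC_Os04g53640. A cut site from outside thus cannot be told from 1 of the nucleus itself, and the shares below are given beside those of nuclei with a low root cap score. The root cap score is the share of a nucleus's cut sites in 798 regions of root cap genes, without the members and without genes also listed for root hair. It is a range and not a cell type, and its genes were listed from these nuclei as well.

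All 3 loci were open in a larger share of the nuclei at the upper end of the root cap score than of those at its lower end, although most open nuclei lay outside the top 5%. In the 5% of nuclei with the highest score (479 to 555 per library), LOC_Os01g73700 was open in 20.2% to 24.4% of nuclei, LOC_Os06g33940 in 68.6% to 76.4% and LOC_Os04g53640 in 69.0% to 74.7%. In the lower 50% of nuclei by score the shares were 5.03% to 5.34%, 5.45% to 6.74% and 7.26% to 8.80%. The median depth was 24119 to 24847 cut sites in the top nuclei and 22819 to 27511 in the lower 50%. The top nuclei, 5% of the total, held 36.4% to 48.2% of the cut sites at LOC_Os06g33940 and 38.2% to 39.98% at LOC_Os04g53640, but 20.3% to 23.9% at LOC_Os01g73700. Of the open nuclei, 14.97% to 17.3% were top nuclei at LOC_Os01g73700, 25.9% to 32.7% at LOC_Os06g33940 and 24.2% to 26.1% at LOC_Os04g53640.

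**Figure D1:**
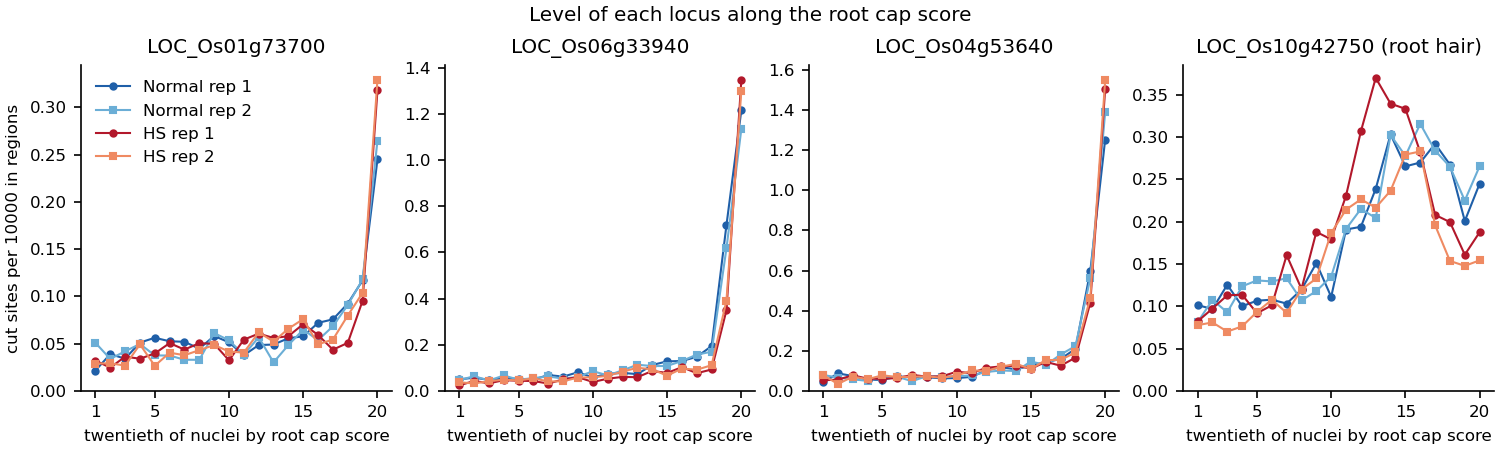
Level of each locus (cut sites per 10000 in regions, y axis) in 20 bins of equal size by root cap score (x axis), with a line for each library; the right panel shows LOC_Os10g42750, a root hair gene. The members' lines stay low and climb in bins 19 and 20, to 1.13 to 1.55 at LOC_Os06g33940 and LOC_Os04g53640, while the root hair gene is highest in a bin between 13 and 16 in every library.

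The climb along the score was steep. In Normal replicate 1 the level of LOC_Os06g33940 was 0.194 in bin 18 of 20, 0.719 in bin 19 and 1.22 in bin 20. That of LOC_Os04g53640 was 0.210, 0.598 and 1.253 in the same bins, and that of LOC_Os01g73700 was 0.0923, 0.117 and 0.245. Over the 4 libraries, the level in the top nuclei was 19.3 to 32.5 times that in the lower 50% for LOC_Os06g33940, 19.3 to 23.2 times for LOC_Os04g53640 and 5.23 to 8.82 times for LOC_Os01g73700. By the mean log2 of this ratio they ranked 24, 40 and 479 among 54150 regions, whose median was -0.11. The root hair gene LOC_Os10g42750 had a ratio of 1.49 to 2.28 and the endodermis gene LOC_Os01g15610 one of 1.02 to 1.58. Another root hair gene, LOC_Os05g27000, had ratios of 6.65 and 6.59 in Normal replicates 1 and 2, above LOC_Os01g73700 there. In HS replicates 1 and 2 it had 4.56 and 5.06, below LOC_Os01g73700.

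Regions around the genes differed in how far they shared this pattern. Upstream of LOC_Os01g73700, the region that overlaps LOC_Os01g73710 and LOC_Os01g73720, both on the root cap list, had ratios of 10.8, 10.4, 17.0 and 14.9 in Normal replicates 1 and 2 and HS replicates 1 and 2. That is above the start region of LOC_Os01g73700 itself in every library. Upstream of LOC_Os06g33940, a region from -11482 to -9371 bp of the gene start had ratios of 11.6 to 29.4. Around LOC_Os04g53640 the nearest neighbours had ratios of 1.09 to 1.30 upstream and 2.07 to 6.24 downstream, against 19.3 to 23.2 for the region of the gene itself.

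**Figure D2:**
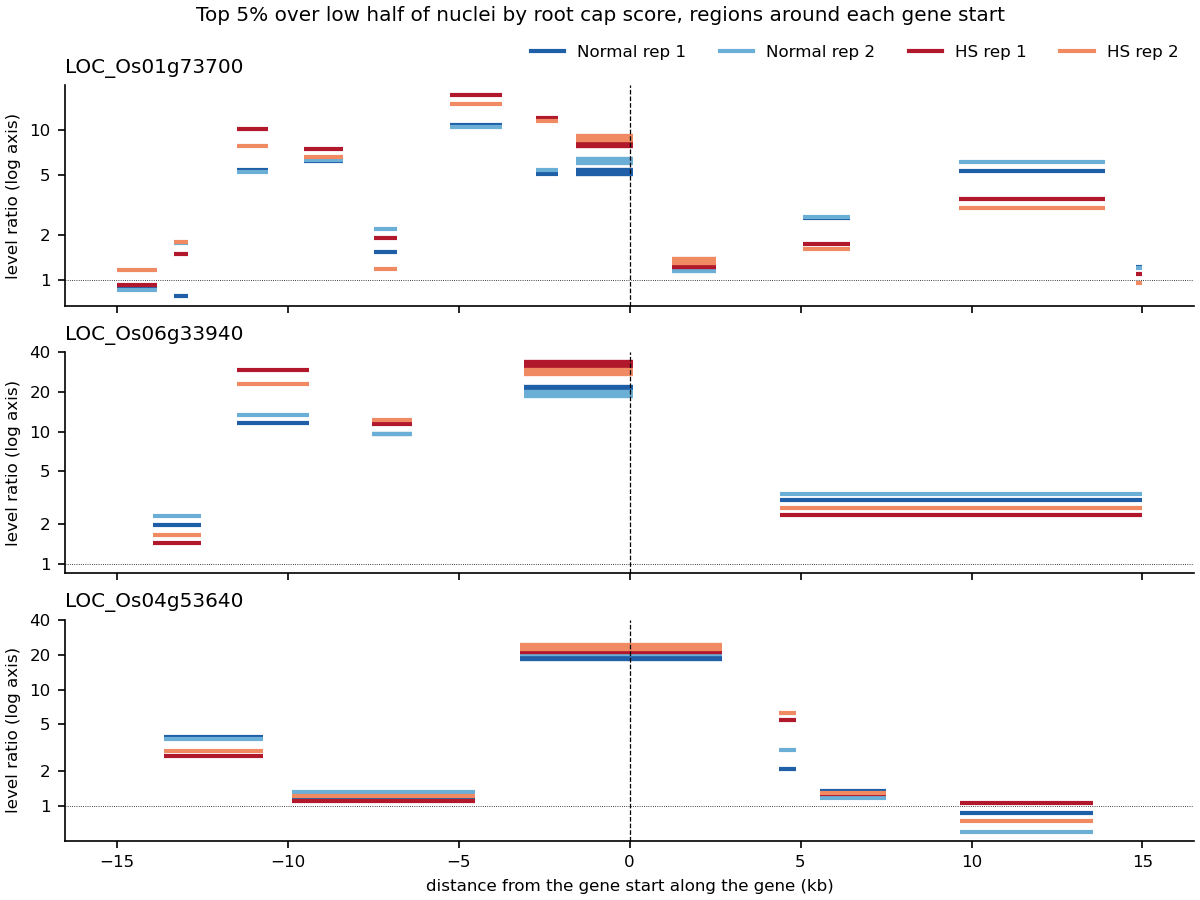
Ratio of the level in the top 5% of nuclei by root cap score to that in the lower 50% (y axis, log scale) for regions within 15 kb of each gene start (x axis, distance along the gene in kb); each bar spans a region in 1 library, thick for the members. LOC_Os04g53640 stands alone at 19.3 to 23.2, while the members on chromosomes 1 and 6 have upstream neighbours with ratios over 10.

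Loci may be open in the same nucleus more often than their shares allow. The members were listed from 1 cluster of these same nuclei, so co-opening above chance over all nuclei is built into that choice. The ratios and intervals below describe its extent and test nothing. Chance was set at equal depth, as the product of both shares within 20 strata of depth per library. LOC_Os06g33940 and LOC_Os04g53640 were both open in 506 nuclei of Normal replicate 1 where 233 were expected, in 454 against 223 in Normal replicate 2, in 388 against 167 in HS replicate 1 and in 461 against 186 in HS replicate 2. The ratios were 2.17, 2.04, 2.32 and 2.47, the highest of the 3 pairs in each library. Of the nuclei open at LOC_Os06g33940, 31.1% to 40.2% were also open at LOC_Os04g53640, against 10.8% to 12.1% of those closed at it.

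The pairs with LOC_Os01g73700 were closer to chance but above it in every library. With LOC_Os04g53640 the ratios were 1.55 and 1.78 in Normal replicates 1 and 2 and 1.89 and 1.91 in HS replicates 1 and 2. With LOC_Os06g33940 they were 1.48, 1.49, 1.84 and 1.74. The lower bounds of the 95% intervals of the odds ratios lay between 1.42 and 4.04 for the 3 pairs; these intervals cover counting error only. All 3 loci were open in 101, 88, 96 and 96 nuclei of the 4 libraries, or 5.06, 5.19, 6.68 and 6.23 times the expected number.

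Other loci show how large such a ratio is for genes outside the group. The endodermis gene LOC_Os01g15610 had ratios of 0.92 to 1.29 with the members, and the root hair gene LOC_Os10g42750 had 1.13 to 1.42. The second root hair gene, LOC_Os05g27000, had 1.30 to 1.57. Among the other root cap genes, LOC_Os03g60279 reached 1.92 to 2.21 with LOC_Os06g33940, near the pair of LOC_Os06g33940 and LOC_Os04g53640. LOC_Os08g30780 had 1.12 to 1.36 with the 3 members. It was open in 50.4% to 61.8% of nuclei, which limits this ratio, so it cannot be compared with ratios of rarer loci. Its odds ratios were 2.54 to 2.83 with LOC_Os06g33940, 1.98 to 2.37 with LOC_Os04g53640 and 1.497 to 1.81 with LOC_Os01g73700. Those of LOC_Os01g73700 and LOC_Os06g33940 were 1.72 to 2.31. The root hair gene LOC_Os05g27000, open in 27.1% to 28.0% of nuclei, had odds ratios of 1.74 to 2.26 with LOC_Os01g73700. These lay within the range of that pair of members. With LOC_Os06g33940 and LOC_Os04g53640 it had 1.64 to 1.93. LOC_Os08g30780 was open in 39.9% to 54.8% of the nuclei in the lower 50% of the score. Co-opening with the 3′ region of LOC_Os01g73700 was 0.95 to 1.16.

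Likeness across nuclei was measured as the correlation of opening within depth strata, averaged over the 4 libraries. These are descriptions, since the points share library and depth, and in sparse counts the values are low. Among 55433 regions, LOC_Os06g33940 ranked 2 for LOC_Os04g53640, with a mean correlation of 0.21, and LOC_Os04g53640 ranked 8 for LOC_Os06g33940. For LOC_Os01g73700, LOC_Os04g53640 ranked 17 at 0.10 and LOC_Os06g33940 ranked 160 at 0.07. The 99th percentile of all regions lay at 0.05, 0.09 and 0.09 for LOC_Os01g73700, LOC_Os06g33940 and LOC_Os04g53640.

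The 5 most like regions of each member were mostly near root cap genes of the list. For LOC_Os01g73700 these overlapped LOC_Os10g08280, LOC_Os04g35600, the neighbours LOC_Os01g73710 and LOC_Os01g73720, and LOC_Os08g10649, with mean correlations of 0.12 to 0.13, and a region on chromosome 6 with no gene of the lists. For LOC_Os06g33940 they overlapped LOC_Os11g29980, the genes LOC_Os06g46690 and LOC_Os06g46700, and LOC_Os03g60279. For LOC_Os04g53640 they overlapped LOC_Os06g33940, LOC_Os04g36642 and LOC_Os08g10649. The most like region of both LOC_Os06g33940 and LOC_Os04g53640 was the same, on chromosome 4 from 22179878 to 22181033, with mean correlations of 0.26 and 0.25 and no listed gene; another nearby region, from 22181692 to 22182634, was among the 5 of both.

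Within the top nuclei only 1 of the 3 pairs was open together more often than at chance. For LOC_Os06g33940 and LOC_Os04g53640 the odds ratios at equal depth were 0.62, 0.59, 0.35 and 0.58 in Normal replicates 1 and 2 and HS replicates 1 and 2. For LOC_Os01g73700 and LOC_Os06g33940 they were 0.65, 0.52, 0.49 and 0.42. LOC_Os01g73700 and LOC_Os04g53640 had odds ratios above 1, of 2.56, 2.14, 3.87 and 2.98. All but 1 of these 12 intervals left out 1; in Normal replicate 1 that of LOC_Os01g73700 and LOC_Os06g33940 ran from 0.395 to 1.07. In the top nuclei LOC_Os06g33940 and the other loci were thus open in the same nucleus less often than at chance. Joint opening stayed common all the same, since odds ratios exaggerate small shortfalls where shares are high. LOC_Os06g33940 and LOC_Os04g53640 were both open in 286, 256, 240 and 271 top nuclei, at 0.97, 0.96, 0.94 and 0.97 times the expected number. LOC_Os01g73700 and LOC_Os06g33940 were at 0.925, 0.856, 0.879 and 0.854 times.

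This division rests on the highest scores. With 10% of nuclei in place of 5%, the odds ratios of LOC_Os06g33940 and LOC_Os04g53640 were 1.49 to 2.79 and those of LOC_Os01g73700 and LOC_Os06g33940 were 0.82 to 1.57. With a score from the first 100 genes of the list, they were 0.48 to 0.71 and 0.49 to 0.82, with intervals that included 1 in every library but HS replicate 1. Outside the top 10%, the ratios of observed to expected nuclei for the 3 pairs were 0.93 to 1.097 in Normal, within counting error of 1. In HS they were 1.12 to 1.49. In HS replicate 1 the odds ratio intervals of both pairs with LOC_Os06g33940 included 1, at 0.925 to 1.73 with LOC_Os01g73700 and 0.895 to 1.49 with LOC_Os04g53640. The other HS intervals did not.

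**Figure D3:**
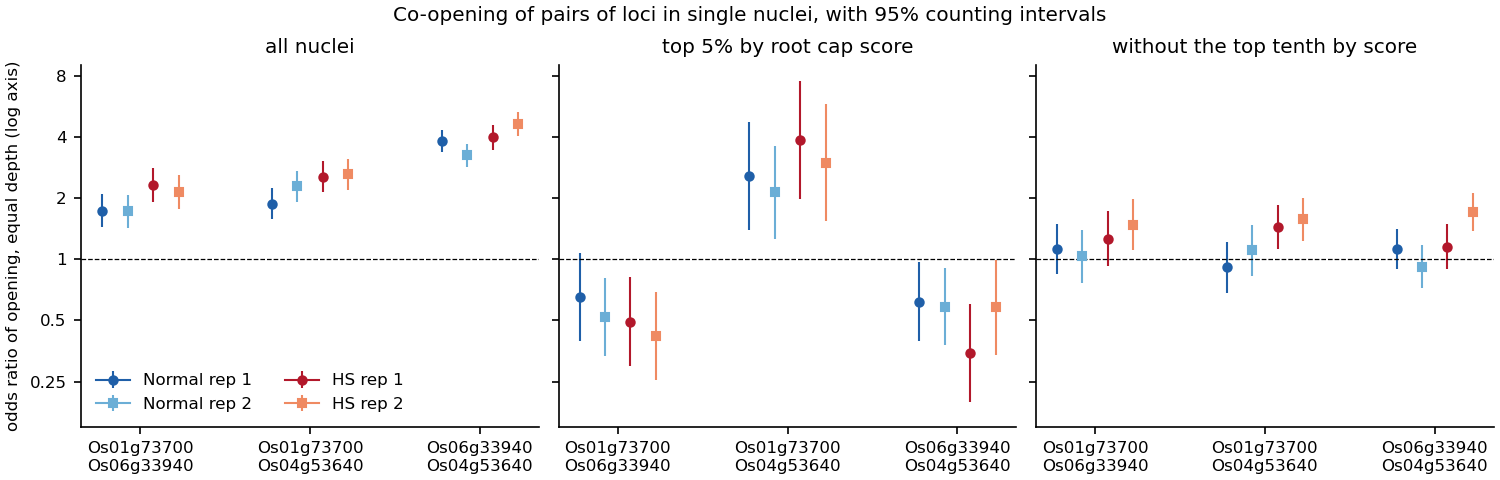
Odds ratios of opening at equal depth (y axis, log scale) for the 3 pairs of loci in each library, with 95% intervals of counting error, in all nuclei, in the top 5% by root cap score and outside the top 10%. In all nuclei every value lies above 1; in the top nuclei both pairs with LOC_Os06g33940 lie below 1, at 0.35 to 0.65.

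In single combinations the same division appeared mainly among the less common ones. The most common was LOC_Os06g33940 and LOC_Os04g53640 open with LOC_Os01g73700 closed. It was found in 213, 196, 170 and 204 top nuclei, or 35.5% to 42.6% of them, at 0.93, 0.97, 0.91 and 0.98 times the expected number. In the top nuclei, LOC_Os01g73700 and LOC_Os04g53640 open with LOC_Os06g33940 closed were found in 25, 41, 35 and 34 nuclei, which is 1.36, 1.71, 1.75 and 1.92 times the number expected. LOC_Os01g73700 and LOC_Os06g33940 open with LOC_Os04g53640 closed were found in 7, 15, 7 and 9 nuclei, or 0.37, 0.67, 0.38 and 0.50 times the expected number. All 3 were open in 60 to 73 nuclei per library, at 0.92 to 1.08 times the expected number.

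The levels of the members in the top nuclei restate this division. In top nuclei open at LOC_Os01g73700, the level of LOC_Os04g53640 was 1.48 to 1.61 times that in top nuclei closed at it, and that of LOC_Os06g33940 was 0.62 to 0.79 times. Of the 3 other root cap genes compared, LOC_Os03g60279 and LOC_Os02g40070 were lower, at 0.52 to 0.69 and 0.60 to 0.75 times, and LOC_Os08g30780 was at 0.96 to 1.196 times, below 1 in HS replicate 1 and above it in the others. In nuclei open at LOC_Os06g33940, LOC_Os03g60279 was 1.22 to 1.44 times, LOC_Os02g40070 1.03 to 1.32 times and LOC_Os08g30780 0.95 to 1.01 times as high as in those closed at it. The root cap list as a whole went both ways. In top nuclei open at LOC_Os01g73700, 33.6% of its 798 regions were higher and 31.0% lower in the 4 libraries. Of all regions, 15.5% were higher and 24.3% lower there. In those open at LOC_Os06g33940, 18.0% of the list were higher and 23.2% lower, against 12.3% and 9.65% of all regions. The ratios of LOC_Os03g60279 and LOC_Os02g40070 held their direction in the 4 libraries. The root cap score itself was 0.98 to 1.03 times for the 3 members, but shares still changed along it. In the highest of 5 bins of the top nuclei by score, LOC_Os06g33940 was open in 58.6% to 71.2%, against 72.1% to 81.1% in the lowest. LOC_Os04g53640 had 73.9% to 81.25% and 59.1% to 70.5%, and LOC_Os01g73700 23.4% to 35.4% and 9.47% to 22.7%.

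Markers of other cell types moved with the division. The endodermis gene LOC_Os01g15610 was 1.68 to 3.24 times as high in top nuclei open at LOC_Os01g73700 and 0.54 to 0.80 times in those open at LOC_Os06g33940. All 6 root hair markers were higher in the 4 libraries in top nuclei open at LOC_Os01g73700 than in those closed at it, and none was at 0. Their summed level was 6.09 to 7.08 against 2.99 to 3.70. For LOC_Os04g53640 all 6 were also higher, at 4.25 to 5.04 against 2.09 to 2.89. For LOC_Os06g33940 the sum was 3.61 to 4.23 against 4.68 to 5.55. The 6 are not separate: they cover 8 distinct regions, and those of LOC_Os10g31680 and LOC_Os10g31720 make up that of LOC_Os10g31700. The region of LOC_Os10g31640, at 2.06 to 2.84 of the sum in nuclei open at LOC_Os01g73700, overlaps genes of both the root hair and the root cap list. Of 1630 regions of the root hair list, 36.7% were higher in the 4 libraries in top nuclei open at LOC_Os01g73700 and 12.3% were lower, against 15.5% and 24.3% of all regions. The share of higher regions was thus near that of the root cap list, and the share of lower regions was below it. Nuclei open at a locus were deeper, by 1.17 to 1.60 times in median cut sites. The part of these markers, of the root cap score and of depth in the division was not tested.

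**Figure D4:**
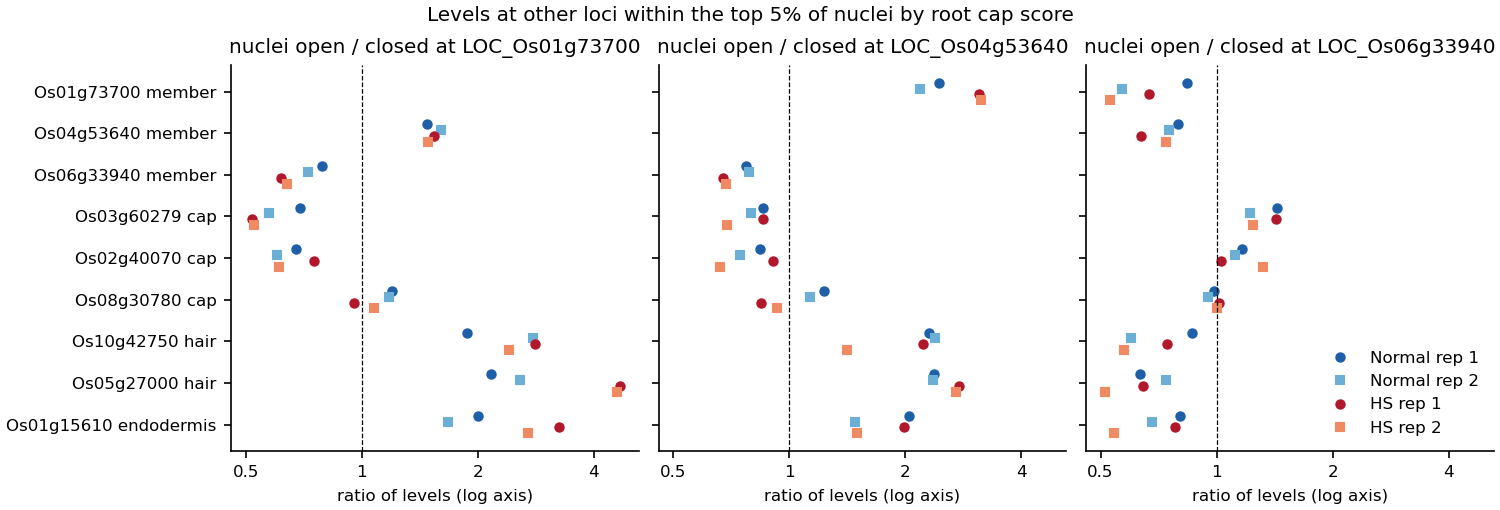
Ratio of the level at other loci (rows) in top nuclei open at a member to that in top nuclei closed at it (x axis, log scale), with a point for each library. LOC_Os01g73700 and LOC_Os04g53640 show the same directions at the hair, endodermis and LOC_Os03g60279 rows, and LOC_Os06g33940 the opposite ones.

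Likeness was also computed in the top nuclei alone, a comparison chosen after its values were seen. There, 1 of the 5 regions most like LOC_Os01g73700 in all nuclei was again among its 5. For LOC_Os01g73700 the region of LOC_Os02g16730 came first at a mean correlation of 0.42, followed by LOC_Os01g73710 and LOC_Os01g73720 at 0.40 and LOC_Os12g38800 and LOC_Os12g38810 at 0.38. The regions of LOC_Os02g16730 and of LOC_Os12g38800 and LOC_Os12g38810 were also among the 5 most like LOC_Os04g53640. None of these was among the 5 of LOC_Os06g33940, led by LOC_Os06g11500 and LOC_Os08g37380 at 0.18. Of 54156 regions, LOC_Os06g33940 ranked 52971 for LOC_Os01g73700 and 53938 for LOC_Os04g53640. LOC_Os01g73700 and LOC_Os04g53640 had a mean correlation of 0.145. For LOC_Os01g73700 that put LOC_Os04g53640 at rank 1950, below the 99th percentile of all regions at 0.217. For LOC_Os04g53640 it put LOC_Os01g73700 at rank 272, above the 99th percentile at 0.125.

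Heat stress was compared with Normal on cut sites summed over the nuclei of each library, with the edgeR quasi-likelihood test, and a region counted as called where it differed by 2-fold or more with an adjusted p (Benjamini-Hochberg) no larger than 0.01. None of the 4 regions of the loci was called in all nuclei, where 4.91% of 55494 regions were. LOC_Os06g33940 had the largest difference. Its level was 0.176 and 0.166 in Normal replicates 1 and 2 and 0.129 and 0.135 in HS replicates 1 and 2. Both HS libraries lay below both Normal libraries. The log2 fold change was -0.37 ± 0.04 (SE, edgeR adjusted p = 0.000355), short of 2-fold; at that adjusted p limit alone, 23.1% of all regions were lower and 25.0% higher in HS.

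The other gene starts did not pass the adjusted p limit. Both HS libraries lay below both Normal libraries at each, but the share of all regions with such an order was not counted. LOC_Os01g73700 had a level of 0.0661 and 0.0634 in Normal replicates 1 and 2 and 0.0614 and 0.0621 in HS replicates 1 and 2, with a log2 fold change of -0.06 ± 0.05 (edgeR adjusted p = 0.303). LOC_Os04g53640 had 0.180, 0.185, 0.173 and 0.177, with -0.05 ± 0.03 (edgeR adjusted p = 0.18). The 3′ region of LOC_Os01g73700 had a log2 fold change of 0.12 ± 0.04 (edgeR adjusted p = 0.0343), and -0.57 once the called length, longer in HS, was taken as an offset. In these sums, fewer root cap nuclei and less opening per nucleus cannot be told apart.

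In the top nuclei the members lay the other way. The level of LOC_Os06g33940 was 1.22 and 1.13 in Normal replicates 1 and 2 and 1.34 and 1.30 in HS replicates 1 and 2 (log2 fold change 0.21 ± 0.06, edgeR adjusted p = 0.00441). That of LOC_Os04g53640 was 1.251, 1.39, 1.502 and 1.55 (0.25 ± 0.06, edgeR adjusted p = 0.000599). That of LOC_Os01g73700 was 0.244, 0.266, 0.317 and 0.329 (0.38 ± 0.11, edgeR adjusted p = 0.00882). None reached 2-fold, so none was called, where 5.87% of 50875 regions were; 10.3% were higher and 8.90% lower in HS at the adjusted p limit alone. The score itself was higher in the top nuclei of HS, with a lower limit of 3.70% and 3.74% of cut sites against 3.61% and 3.63% in Normal, and 29.5% of the regions that make up the score were higher and 12.1% lower in HS there at the adjusted p limit, so the top nuclei are not the same range in both groups.

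These values depended on which nuclei and libraries were taken. With 10% of nuclei, LOC_Os06g33940 had a log2 fold change of -0.14 (edgeR adjusted p = 0.0307). In bin 19 of the 20 score bins, just below the top nuclei, its level was 0.719 and 0.618 in Normal and 0.350 and 0.391 in HS. By DESeq2, the adjusted p in the top nuclei was 0.0173 for LOC_Os06g33940, 0.0366 for LOC_Os01g73700 and 0.0029 for LOC_Os04g53640. Without Normal replicate 1 or without Normal replicate 2, edgeR called 0 regions at all in the top nuclei, with 13718 and 13717 regions at an unadjusted p under 0.05, and the adjusted p of the members lay between 0.0448 and 0.162. Without HS replicate 1 it was 0.0339 for LOC_Os06g33940 and 0.0218 for LOC_Os01g73700, and without HS replicate 2 it was 0.0627 for LOC_Os01g73700 (edgeR).

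Outside the top nuclei the level of every member was below Normal in both HS libraries, which was not tested on its own. The level of LOC_Os06g33940 in the other 95% of nuclei was 0.115 and 0.111 in Normal replicates 1 and 2 and 0.0699 and 0.0795 in HS replicates 1 and 2. That of LOC_Os04g53640 was 0.118, 0.117, 0.109 and 0.112 in the same order, and that of LOC_Os01g73700 was 0.0558, 0.0520, 0.0490 and 0.0495. The difference of the heat effect between top and other nuclei was tested as an interaction in edgeR with the library as a block, added after the levels were seen. It was 0.81 ± 0.08 on the log2 scale for LOC_Os06g33940 (adjusted p = 4.57e-10), 0.34 ± 0.07 for LOC_Os04g53640 (adjusted p = 0.000707) and 0.51 ± 0.16 for LOC_Os01g73700 (adjusted p = 0.0297). Of 55494 regions, 4.15% had a higher and 3.76% a lower value in the top nuclei at the adjusted p limit, and 1.57% passed 2-fold as well; no member did. With 10% of nuclei the interaction of LOC_Os06g33940 was 0.31 (adjusted p = 0.00173), that of LOC_Os04g53640 was -0.0061 and that of LOC_Os01g73700 was 0.26 (adjusted p = 0.204).

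**Figure D5:**
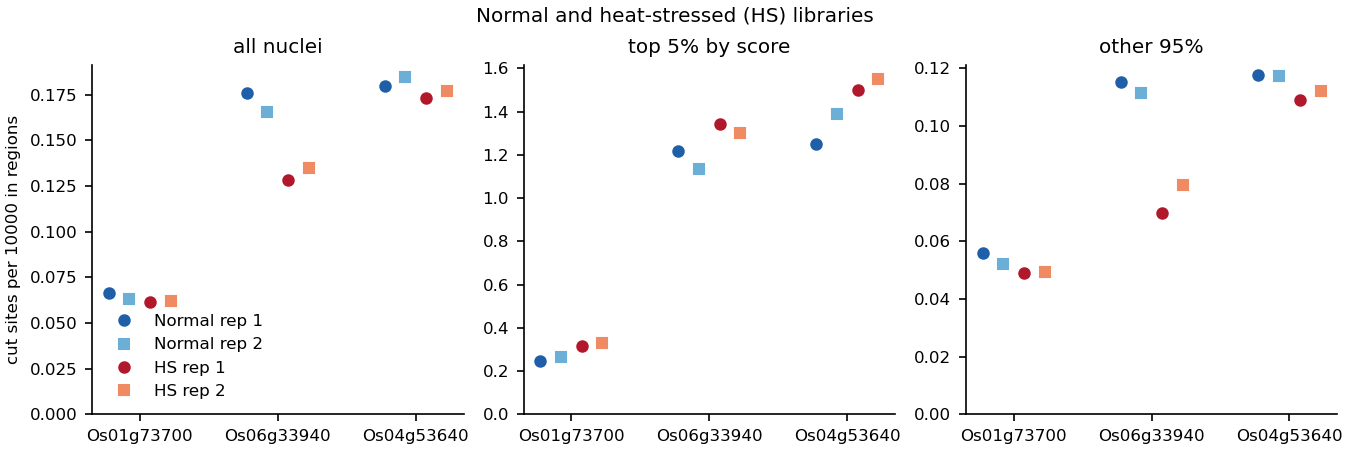
Level of each locus (cut sites per 10000 in regions, y axis from 0) in the 2 Normal and 2 HS libraries, in all nuclei, in the top 5% by root cap score and in the other 95%. LOC_Os06g33940 lies lower in HS in all nuclei and in the other 95%, and higher in the top nuclei.

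Of the root cap list, few regions were called in all nuclei. Of its 798 regions in the score, 9 were called higher and 14 lower in HS, or 2.88%, against 4.91% of all regions, and the median log2 fold change was -0.01. At the adjusted p limit alone, 30.2% were lower and 26.7% higher, against 23.1% and 25.0% of all regions. The summed share of cut sites in these regions was 1.98% and 1.97% in Normal replicates 1 and 2 and 1.93% and 1.92% in HS replicates 1 and 2.

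The log2 odds ratios of co-opening were higher in HS for the 3 pairs, a difference that did not pass the exact test. The mean log2 odds ratio of LOC_Os01g73700 and LOC_Os06g33940 was 0.79 in Normal and 1.15 in HS, a difference of 0.36. For LOC_Os01g73700 and LOC_Os04g53640 it was 1.05 and 1.37, and for LOC_Os06g33940 and LOC_Os04g53640 it was 1.81 and 2.10. Every HS library lay above every Normal library in each pair. The exact permutation test over libraries, two-sided, gave p = 0.333 for each (adjusted p = 0.333 over the 3 pairs), which is the smallest p that 2 libraries against 2 allow. With the 3′ peak of LOC_Os01g73700 counted as the rule takes it, the differences of its pairs turned to -0.35 with LOC_Os06g33940 and -0.48 with LOC_Os04g53640.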

How the data were processed

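The authors ran Cell Ranger ATAC 1.2.0 per library, per the submitters' processing notes, and deposited a peak list, barcodes and a matrix of raw counts of Tn5 cut sites per peak and barcode, with no normalization and no cell filter. The deposited peak coordinates and barcodes are other values. The sources used here name no build or annotation.

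Nuclei were the deepest barcodes of each library, in the number the study lists (10719 to 12708), with 93.6% to 93.8% of cut sites. Likely doublets were removed by simulated doublets among 50 neighbours in latent semantic indexing. Peaks sharing bases were merged, and tests used the 55496 regions called in all 4 libraries. A locus was open with at least 1 cut site. Co-opening used Mantel-Haenszel odds ratios over 20 depth strata (5 in top nuclei). Sums per library were tested with edgeR 4.0.16 (TMM, filterByExpr) in R 4.3.3; DESeq2 1.42.0 was the alternative, and Python 3.11.15 with scipy 1.17.1 the rest. The tests recovered changes in data simulated with 200 changed regions.

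The members and lists were chosen with earlier results of these data known. Named loci are the members, every region over their spans, 6 comparison genes of the lists, and the 5 regions most like each member, named by listed genes within their body or 2000 bp upstream. The gene list held here is shortened. Sequences and motifs were not analysed here.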

Additional observations from a re-analysis of the deposited data

Results flagged for a closer look

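For each member the heat effect in the top 5% of nuclei by root cap score went against that in the other 95%: every HS library lay above every Normal library in the top nuclei, and below in the others. From the group means, the difference between the 2 effects on the log2 scale was 0.470 for LOC_Os01g73700, 0.773 for LOC_Os06g33940 and 0.298 for LOC_Os04g53640. In the other 95% alone the log2 differences were -0.13, -0.60 and -0.09 in the same order, with no test of their own. How many of all regions lie opposite in this way was not counted, and 2 libraries against 2 separate easily. The interaction test gave edgeR adjusted p values of 0.0297, 4.57e-10 and 0.000707. The opposite directions depended on the limit of 5%. With 10% of nuclei LOC_Os06g33940 was lower in HS among the top nuclei as well, at -0.14. Its interaction was then 0.31 (edgeR adjusted p = 0.00173), that of LOC_Os04g53640 -0.0061 and that of LOC_Os01g73700 0.26 (edgeR adjusted p = 0.204). The score limit of the top nuclei also differed between the groups, and its part in the opposite directions was not tested.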

How the results depend on the processing

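Means over the 4 libraries were compared across settings, some of them chosen after seeing the data (the literal rule, the settings within the top nuclei and those of the interaction and of HS against Normal co-opening). The thinned open share of LOC_Os01g73700, LOC_Os06g33940 and LOC_Os04g53640 was 3.07%, 6.62% and 7.65%. It was 0.179%, 1.14% and 1.37% with at least 3 cut sites, 6.85%, 12.4% and 14.5% unthinned and 1.61%, 3.62% and 4.28% thinned to 5000; LOC_Os01g73700 had 4.91% for the peak with the most cut sites and 6.30% for all peaks of the rule. Without single replicates LOC_Os06g33940 ranged from 6.32% to 6.98%.

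The co-opening ratios of LOC_Os01g73700 with LOC_Os06g33940, of LOC_Os01g73700 with LOC_Os04g53640 and of LOC_Os06g33940 with LOC_Os04g53640 were 1.64, 1.79 and 2.25. They were 1.48, 1.59 and 2.00 without doublet removal and 4.17, 7.62 and 6.014 with at least 3 cut sites. The first and second were 1.26 and 1.36 for the peak with the most cut sites and 1.35 and 1.46 for all peaks of the rule, and the last was 2.38 in the middle of the depth range. Without single replicates the first ranged from 1.57 to 1.69. The HS minus Normal differences of log2 odds ratios for the first and second turned to -0.70 and -0.97 for the peak with the most cut sites, and to -0.35 and -0.48 for all peaks of the rule. In the top nuclei the mean log2 odds ratios of the first and last were -0.96 and -0.94; they turned to 0.082 and 0.99 with 10% of nuclei, and the first was -0.67 with the first 100 genes and -1.45 with at least 3 cut sites.

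The levels in the top nuclei were 0.289, 1.248 and 1.42 for LOC_Os01g73700, LOC_Os06g33940 and LOC_Os04g53640, 0.187, 1.33 and 1.196 with the first 100 genes and 0.199, 0.884 and 0.971 with 10% of nuclei; LOC_Os01g73700 had 0.266 without doublet removal and 0.276 to 0.304 without single replicates. The regions called in HS against Normal numbered 2726 in all nuclei, 266 with called length as offset and 18 of 22154 among regions of the same called length, and 2411 to 3107 without single replicates. In the top nuclei they numbered 2985, then 1491, 545 and 0 to 2846. With called length as offset, the log2 fold change of LOC_Os04g53640 in all nuclei turned to 0.11, and that of the 3′ region of LOC_Os01g73700 to -0.57 in all nuclei and -0.53 in the top nuclei. With 10% of nuclei LOC_Os06g33940 turned to -0.14 and the interaction of LOC_Os04g53640 to -0.0061; that of the 3′ region turned from 0.04 to -0.010 without doublet removal. With the replicate number as a block, 2671 and 3138 regions were called, and no member changed its call. Deviations of same-numbered libraries had a correlation of 0.02, so no shared deviation was seen in these sums. That value cannot tell whether same-numbered libraries were prepared together.

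Depth limits the results: most open nuclei hold 1 fragment at a locus, so a nucleus with none is not shown to be closed. Matrices hold no cut sites outside each library's own peaks, and intervals cover counting error only.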
